A study of Homo sapiens with 2 samples.

Results

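SCD, ACSS2, LPIN1 and ME1 are genes of fatty acid and glycerolipid synthesis, and they were taken by name from a table of 1947 genes. They were chosen because all 4 were already known to be higher in the ebastine library of this table, so their direction is a description and carries no test. The table compares 2 cultures that the labels give as C4-2 at passage 10 to 15, although the series' design text speaks of 2 cell types. C4-2 is an established line of human prostate cancer cells, a descendant of LNCaP. Cells were left 24 h to attach, and fresh medium then brought either ebastine, an antihistamine that blocks the H1 receptor, or vehicle. The sources used here give neither dose nor exposure time, both cultures grew in the same serum-containing medium, and 1 library of polyadenylated RNA was made per group, so no ratio below has an error from replicates. The series title names the histone methyltransferase EZH2 as the target of ebastine.

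Fatty acids are built in the cytosol from acetyl-CoA. ACSS2 makes acetyl-CoA from acetate, ATP citrate lyase makes it from citrate, acetyl-CoA carboxylase and fatty acid synthase turn it into palmitate with NADPH as the reductant, and ME1 (malic enzyme) is among the cytosolic sources of that NADPH. SCD (stearoyl-CoA desaturase) then puts a double bond into saturated acyl chains, and LPIN1 (lipin) converts phosphatidate to diacylglycerol on the way to triglycerides and membrane phospholipids. Transcription of this pathway is driven largely by the sterol regulatory element-binding proteins (SREBPs), membrane-bound factors that are released when sterol is low and that bind DNA beside the factors NF-Y and Sp1. Prostate cancer cells are known for making much of their fatty acid themselves, under androgen receptor and SREBP control.

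The values are FPKM, in which the fragments of a gene are divided by its transcript length and by the mapped fragments of the library, as the authors deposited them. SCD, the desaturase, stood at 616 FPKM in the ebastine library and 261 FPKM in the vehicle library. ME1, the malic enzyme, stood at 75.6 FPKM with ebastine and 47.2 FPKM with vehicle. ACSS2, the acetate-activating enzyme, stood at 37.5 FPKM with ebastine and 20.5 FPKM with vehicle. All 3 were higher in the ebastine library, and so was LPIN1, the phosphatidate phosphatase, at 29.4 FPKM with ebastine and 16.1 FPKM with vehicle.

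**Figure D1:**
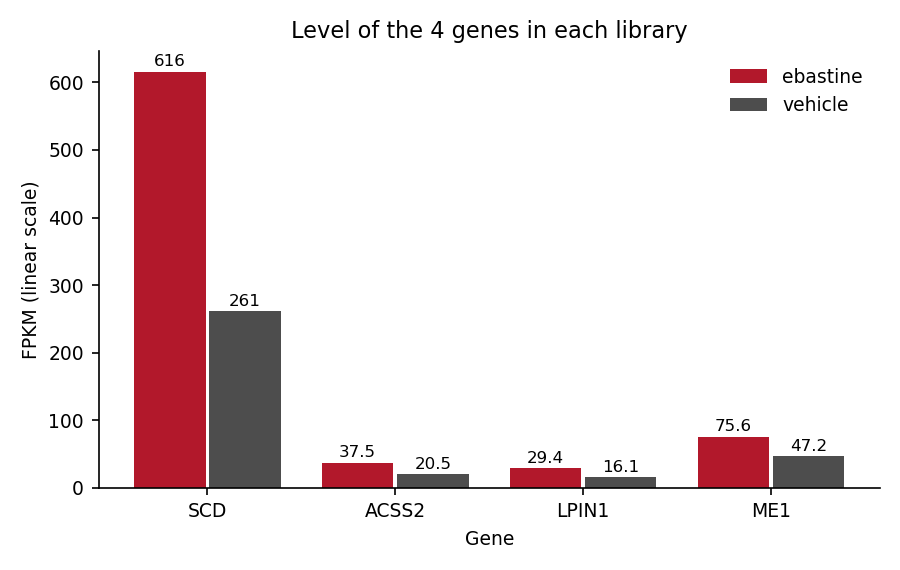
Level of the 4 genes as FPKM on a linear axis, in the ebastine library (left bar of each pair) and the vehicle library (right bar). Each bar is 1 library and has no error bar; SCD reaches 616 FPKM with ebastine against 261 FPKM with vehicle, and the other genes stay under 76 FPKM.

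The order of the levels was SCD, ME1, ACSS2 and LPIN1 in both libraries. FPKM values are scaled to transcript length, so levels can be set beside each other. The level of SCD was 8.14 times that of ME1 with ebastine and 5.53 times with vehicle. The level of ME1 was 2.02 times that of ACSS2 with ebastine and 2.30 times with vehicle. ACSS2 and LPIN1 lay close together, at a quotient of levels of 1.28 with ebastine and 1.27 with vehicle. By level, SCD took place 19 among the 1947 genes with ebastine and place 53 with vehicle. LPIN1, the lowest of the 4, took place 432 with ebastine and place 768 with vehicle.

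Ratios were computed as log2((FPKM in ebastine + 1)/(FPKM in vehicle + 1)), which understates the change of low genes. The ratio of SCD was 1.24, or 2.35-fold higher with ebastine. ACSS2 had a log2 ratio of 0.84 and LPIN1 one of 0.83, or 1.79-fold and 1.78-fold higher. ME1 had the smallest, 0.67, or 1.59-fold higher. The authors' deposited table gives log2 fold changes of 1.24 for SCD, 0.87 for ACSS2, 0.87 for LPIN1 and 0.68 for ME1, without the added 1 FPKM. The median log2 ratio of the 4 was 0.83, whereas that of the 1768 listed genes that averaged 1 FPKM or more over both libraries was -0.32.

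All 4 genes were at least 1.5-fold higher with ebastine. At the scaling the authors deposited, 1 of them, SCD, was at least 2-fold higher. After centring the libraries on the median ratio 4 were, and 3 after equalizing their upper quartiles. Both rescalings were computed on a table already cut by p-value. They multiplied the ebastine library by 1.26 and 1.15, which raised all 4 ratios. The count over the 1768 listed genes rose as well, from 32 to 115 and 74. Whether the libraries needed such a shift was not tested. Of the 1768 listed genes, 9.67% were at least 1.5-fold higher and 1.81% at least 2-fold higher, but the 4 were chosen from this contrast and nothing is read from their count. Among the 1768, SCD took place 14 by log2 ratio, ACSS2 place 68, LPIN1 place 69 and ME1 place 126. Without the added 1 FPKM the places were 35 for SCD, 96 for ACSS2, 97 for LPIN1 and 193 for ME1. In FPKM, the difference of ebastine minus vehicle was 355 for SCD, place 8 of 1947 by increase, and 28.4 for ME1, 17.0 for ACSS2 and 13.3 for LPIN1. In the authors' deposited table all 4 had the smallest p-value, 5e-05, and a q-value of 0.00178, which 385 genes shared. With 1 library on each side, that test compares libraries and not treatments.

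**Figure D2:**
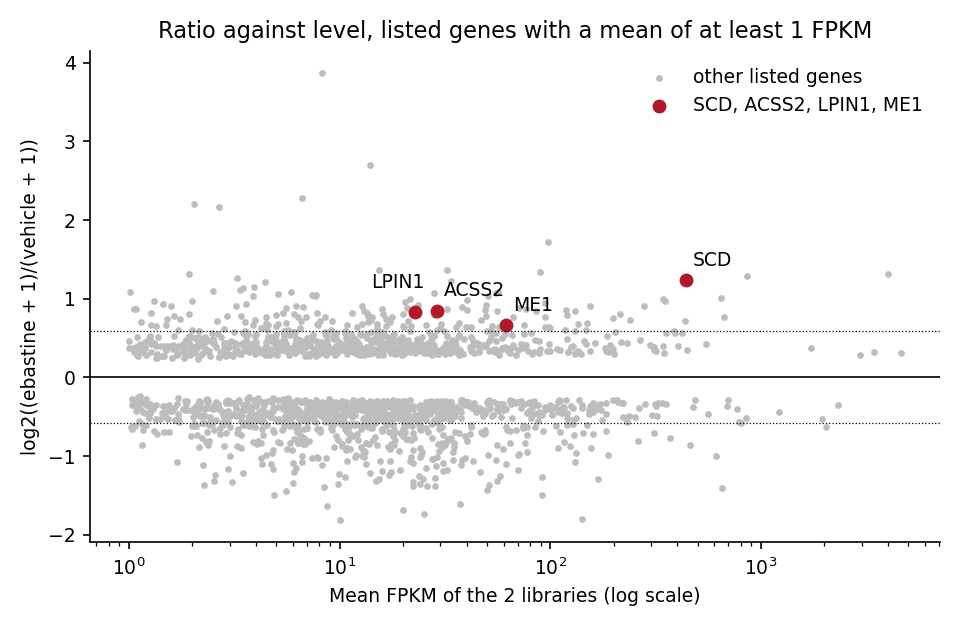
Log2 ratio of ebastine over vehicle against mean FPKM (log axis) for the 1768 listed genes that averaged 1 FPKM or more; each point is 1 gene, the 4 genes are red, and dotted lines mark 1.5-fold. The band without points around 0 comes from the table's limit on the p-value; SCD lies at a ratio of 1.24 among the genes of high level, and the other 3 lie between 0.67 and 0.84.

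Each gene was also set beside the 100 listed genes of most similar mean FPKM, with the other members left out. For SCD, whose neighbours in level ran from 136 to 1211 FPKM, 1 of the 100 had a ratio at least as high and 42 were higher with ebastine at all. For ACSS2 the numbers were 3 and 41 of 100, for LPIN1 4 and 34, and for ME1 8 and 44. The median log2 ratio of these neighbours in level was -0.32 for SCD, -0.34 for ACSS2, -0.40 for LPIN1 and -0.30 for ME1. Among genes of similar level SCD was placed highest of the 4 and ME1 lowest, which describes the contrast they were chosen from and is no test.

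With 2 libraries a gene's pattern is a single ratio, so the genes most like each member are those with the nearest log2 ratio (3 per member, among genes averaging 10 FPKM or more). Nearest to SCD was HMGCS1, which makes HMG-CoA for the mevalonate pathway, at a log2 ratio of 1.23. The next were a transcript listed under a GenBank name, at 1.28, and FTH1, the heavy chain of ferritin and a gene with many pseudogenes, at 1.32. Nearest to ACSS2 was IDI1, the isopentenyl diphosphate isomerase of the mevalonate pathway, at 0.84, followed by FAM198B and the RNA-binding protein gene LARP6, both at 0.85. LPIN1 lay nearest to the histone gene HIST2H2BE and TMEM59L, both at 0.82, and then to IDI1. ME1 lay nearest to RETSAT (retinol saturase) at 0.67, to the sterol carrier STARD4 at 0.67 and to the sterol demethylase CYP51A1 at 0.66. The authors' deposited table gives STARD4 a q-value of 0.116, and the other 10 of these 11 genes q-values under 0.05.

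The 4 genes lie on different chromosomes, in hg19 coordinates and as the span the authors' software reported. SCD lies on chromosome 10, 102106772 to 102124588, and ACSS2 on chromosome 20, 33462766 to 33515769. LPIN1 lies on chromosome 2, 11817705 to 11967533, and ME1 on chromosome 6, 83920110 to 84140938. The spans run over 17.8 kb for SCD, 53.0 kb for ACSS2, 150 kb for LPIN1 and 221 kb for ME1, and no other listed gene overlaps them. In GENCODE release 29 the longest coding transcript has 6 exons and 5.36 kb for SCD, 18 exons and 3.07 kb for ACSS2, 22 exons and 5.69 kb for LPIN1 and 14 exons and 3.37 kb for ME1. SCD has a processed pseudogene, SCDP1, on chromosome 17, and how reads that match both were treated is not stated in any source used here. Within 100 kb there was 1 listed gene beside SCD, the noncoding LINC00263, which went the other way, at 2.59 FPKM with ebastine and 5.48 FPKM with vehicle (log2 ratio -0.85). Beside ACSS2 there was GGT7, a gene of the gamma-glutamyltransferase family, at 19.5 FPKM with ebastine and 14.2 FPKM with vehicle (0.43). Beside LPIN1 and ME1 there was none.

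The promoters are shown because the 4 genes were higher together and because SREBP, NF-Y and Sp1 are the factors best known for acting on such genes. The 250 bases before the RefSeq start site (build GRCh38.p14) are given from 5′ to 3′ along the gene, and capitals mark matches to CCAAT (bound by NF-Y) and GGGCGG (bound by Sp1) on either strand. ACSS2 and LPIN1 have several RefSeq windows, and the one shown has the most GENCODE coding transcripts starting within 100 bases (1 of 2 for ACSS2, 3 of 5 for LPIN1).
SCD, chr10:100346983-100347232, plus strand: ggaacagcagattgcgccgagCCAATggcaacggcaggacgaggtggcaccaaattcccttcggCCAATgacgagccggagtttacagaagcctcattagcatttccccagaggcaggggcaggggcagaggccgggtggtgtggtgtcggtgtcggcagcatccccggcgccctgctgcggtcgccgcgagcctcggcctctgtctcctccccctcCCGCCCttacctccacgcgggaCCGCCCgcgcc
ACSS2, chr20:34876362-34876611, plus strand: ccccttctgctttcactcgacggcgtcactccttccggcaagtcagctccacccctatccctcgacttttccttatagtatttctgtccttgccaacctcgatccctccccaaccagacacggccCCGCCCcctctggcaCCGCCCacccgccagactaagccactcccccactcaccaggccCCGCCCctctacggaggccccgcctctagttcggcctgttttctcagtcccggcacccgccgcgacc
LPIN1, chr2:11724065-11724314, plus strand: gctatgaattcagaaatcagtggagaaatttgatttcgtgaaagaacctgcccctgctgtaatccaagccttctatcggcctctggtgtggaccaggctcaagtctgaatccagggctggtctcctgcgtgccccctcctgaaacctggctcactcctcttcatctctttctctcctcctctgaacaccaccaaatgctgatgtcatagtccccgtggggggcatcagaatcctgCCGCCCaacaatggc
ME1, chr6:83431052-83431301, minus strand: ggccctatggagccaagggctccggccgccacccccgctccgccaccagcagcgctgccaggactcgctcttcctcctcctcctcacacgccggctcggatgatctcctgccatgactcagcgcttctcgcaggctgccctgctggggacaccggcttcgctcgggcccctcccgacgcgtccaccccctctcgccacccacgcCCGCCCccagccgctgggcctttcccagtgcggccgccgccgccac

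Motifs were searched in windows of 300 bases, 250 before and 50 after the start site, on both strands. All 4 genes matched the RefSeq table, with 7 windows in all. SCD had 2 CCAAT matches, whose first bases lie 229 and 186 bases before the start, and 2 GGGCGG matches at 33 and 11 bases before it. ACSS2 had 3 GGGCGG matches in the window shown, and 1 CCAAT and 1 GGGCGG match in the other. LPIN1 had 1 GGGCGG match in the window shown, 4 in the GC-rich window 1 (71.3% G or C, against 54% in the window shown) and no match in window 2. ME1 had 1 GGGCGG match, 46 bases before the start. ME1 also had the 8-base core TCACCCCA of a sterol regulatory element, beginning at base 18 after the start, in the transcribed stretch that is not printed.

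Over the 35116 RefSeq windows of this length, 34.6% held CCAAT, 45.0% held GGGCGG, 1.54% held TCACCCCA and 7.26% held the E-box CACGTG, which had no match in the 7 windows.  These motifs do not overlap each other in the 7 windows, and a match is a match of letters and not a shown binding site. Only these exact letters were searched, so a site spelled otherwise was not counted, and a window without a match may still hold one. RefSeq and GENCODE place the start of SCD more than 100 bases apart, so positions relative to it depend on the annotation.

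**Figure D3:**
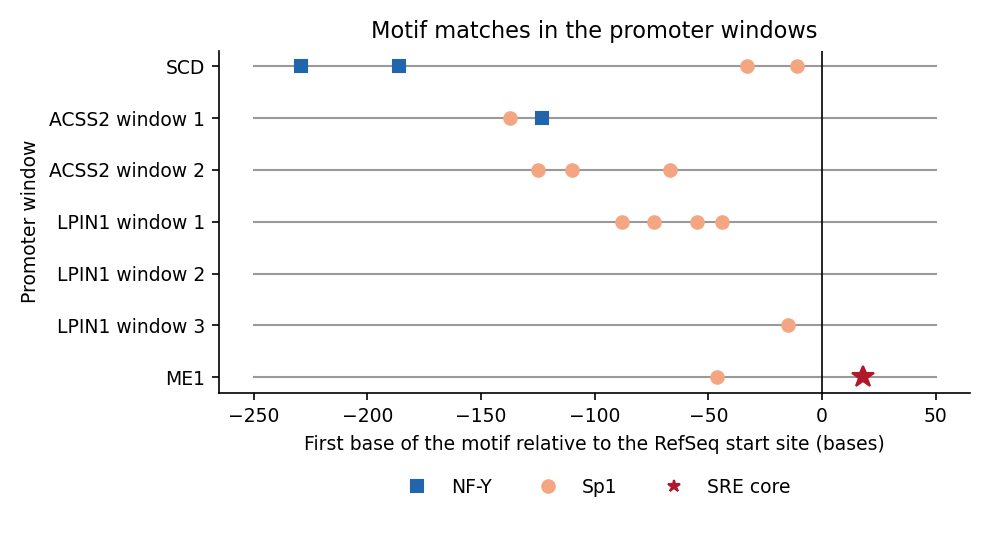
Motif matches in the 7 RefSeq promoter windows of the 4 genes, by the position of the motif's first base relative to the start site (bases); each line is 1 window. SCD holds both of its NF-Y matches at 229 and 186 bases before the start. The single match to the exact letters TCACCCCA, a core of the sterol regulatory element, is in ME1, at base 18 after the start. Variants of that core were not searched.

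The other genes of lipid metabolism were taken from 8 lists with 150 genes besides the 4, chosen with earlier results of these data known. Of these, 20 were in the table (13.3%), where it holds 14.2% of the 13714 genes the authors tested; how many of the 150 were tested is unknown. Of the 20 genes, 16 were higher and 4 lower with ebastine, whereas 43.0% of the 1768 listed genes were higher. Their median log2 ratio was 0.40, beside -0.32 over all listed genes. At least 1.5-fold higher were 5 of the 20, beside 9.67% of the 1768 listed genes. None reached 2-fold at the deposited scaling, beside 1.81% of the 1768. Among the 20, the authors' deposited table holds 10 q-values under 0.05, of which 8 belong to higher and 2 to lower genes. Over the 1768 listed genes, 15.2% had such a q-value and were higher, and 27.0% had one and were lower.

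From acetyl-CoA to palmitate, FASN (fatty acid synthase) was the only listed gene besides ACSS2 among 10 (20%, beside 14.2% of all tested genes). FASN stood at 346 FPKM with ebastine and 273 FPKM with vehicle, a log2 ratio of 0.34, with a q-value of 0.326 in the authors' deposited table. ACLY, ACACA, ACACB and SLC25A1, of the same list, are outside the table and have no value here. The level of SCD was 1.78 times that of FASN in the ebastine library and 0.957 times in the vehicle library. The desaturase thus stood above the synthase with ebastine and close to it with vehicle, each in 1 library without an error.

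Of 18 elongation and desaturation genes 4 were listed, SCD among them (22.2%, beside 14.2% of all tested genes). FADS2, the delta-6 desaturase of polyunsaturated fatty acids, stood at 631 FPKM with ebastine and 468 FPKM with vehicle (log2 ratio 0.43). SCD was close to FADS2 with ebastine, at 0.977 times its level, and at 0.558 times with vehicle. FADS3, a desaturase-family gene, had a log2 ratio of 0.32. ELOVL2, an elongase of long polyunsaturated chains, was lower, at 2.21 FPKM with ebastine and 3.49 FPKM with vehicle (log2 ratio -0.48). Of these 3, ELOVL2 alone passed a q-value of 0.05, at 0.0202 in the authors' deposited table. None of the 7 paralogues of the 4 genes was listed, namely SCD5, ACSS1, ACSS3, LPIN2, LPIN3, ME2 and ME3.

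Of 13 genes that supply NADPH 6 were listed (46.2%, beside 14.2% of all tested genes). ME1 was chosen as higher, and of the other 5 listed genes 4 were higher and 1 lower. Over the 1768 listed genes 43.0% were higher. IDH1, the cytosolic isocitrate dehydrogenase, stood at 248 FPKM with ebastine and 146 FPKM with vehicle, a log2 ratio of 0.76 that lies above that of ME1. IDH2, its mitochondrial counterpart, went the other way, at 130 FPKM with ebastine and 174 FPKM with vehicle (-0.42). The level of IDH1 was 1.91 times that of IDH2 with ebastine and 0.842 times with vehicle. PGD, the phosphogluconate dehydrogenase of the pentose phosphate pathway, stood at 157 FPKM with ebastine and 104 FPKM with vehicle (0.59). PGLS, the lactonase of that pathway, was at 48.4 FPKM with ebastine and 38.7 FPKM with vehicle (0.31). The authors' deposited table gives IDH1 and PGD q-values under 0.05, but 0.0557 to IDH2 and 0.317 to PGLS.

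Next come genes that activate fatty acids and build glycerolipids. Of 16 acyl-CoA synthetases 3 were listed (18.8%, beside 14.2% of all tested genes). These were ACSS2, which was chosen as higher, and 2 others, also higher, where 43.0% of the 1768 listed genes were higher. ACSL1, which activates long-chain fatty acids, stood at 363 FPKM with ebastine and 194 FPKM with vehicle. Its log2 ratio of 0.90 was the highest of the 20 genes, above those of ACSS2, LPIN1 and ME1 and under that of SCD. ACSL4, which prefers arachidonate, was a low gene at 2.58 FPKM with ebastine and 1.52 FPKM with vehicle. Of 33 glycerolipid and phospholipid genes 3 were listed (9.09%), LPIN1, which was chosen as higher, and 2 others, also higher. Beside LPIN1 these were PCYT2, which makes CDP-ethanolamine, at 43.7 FPKM with ebastine and 27.6 FPKM with vehicle (0.64), and AGPAT2, the acyltransferase that makes the phosphatidate used by lipin, at 30.1 FPKM with ebastine and 22.5 FPKM with vehicle (0.40). In the authors' deposited table AGPAT2 had a q-value of 0.0945, and ACSL1, ACSL4 and PCYT2 were under 0.05.

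**Figure D4:**
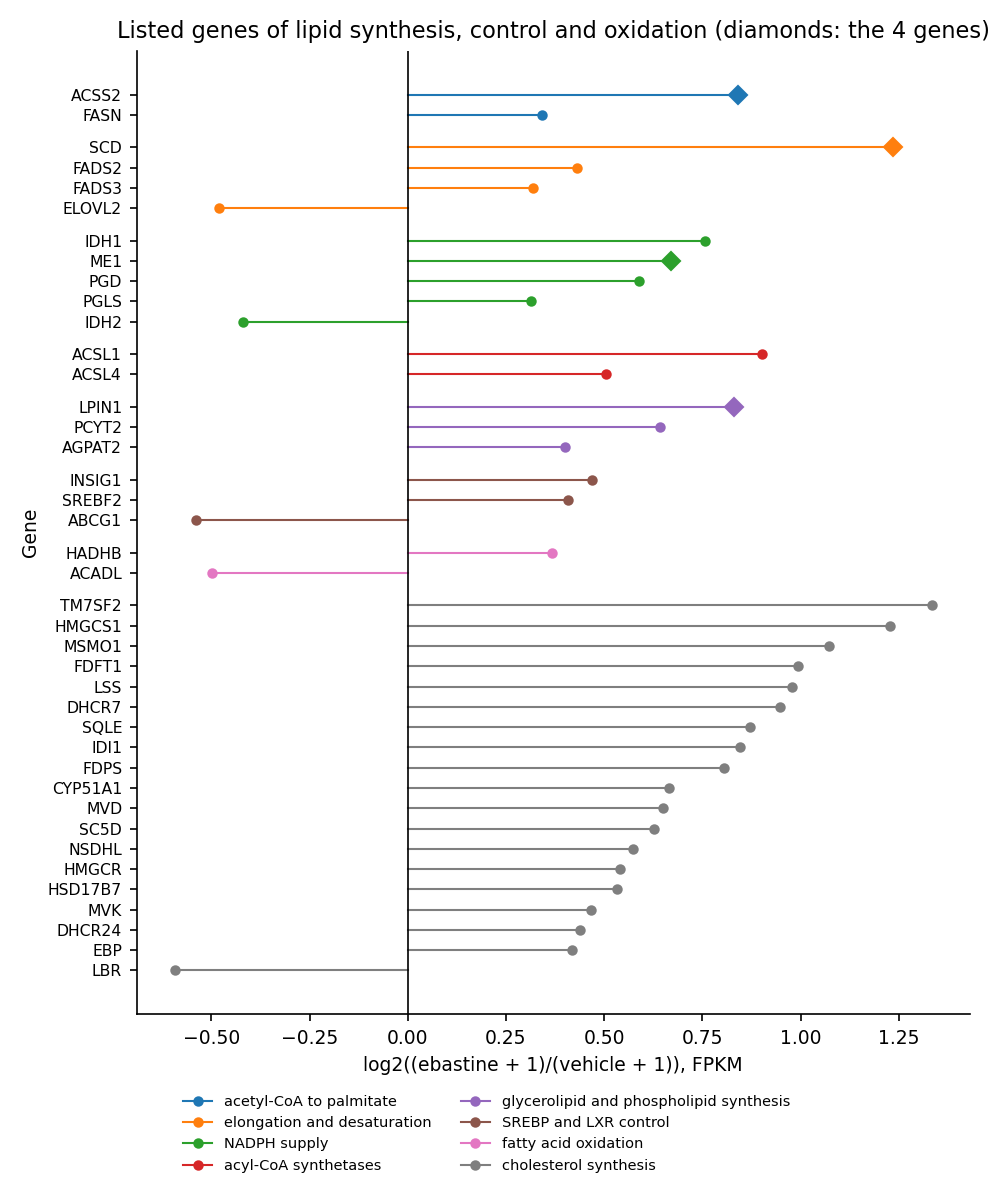
Log2 ratio of ebastine over vehicle for the listed genes of the lists, 3 of them not drawn (x axis; genes down the y axis, coloured by list), with diamonds for SCD, ACSS2, LPIN1 and ME1; ACSS2, which is on 2 lists, is drawn once. Points right of 0 were higher with ebastine; ELOVL2, IDH2, ABCG1, ACADL and LBR lie left of 0.

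Of 16 genes of SREBP and liver X receptor (LXR) control 4 were listed (25%, beside 14.2% of all tested genes). SREBF2, the gene of SREBP2, stood at 76.1 FPKM with ebastine and 57.1 FPKM with vehicle (log2 ratio 0.41). INSIG1, which holds SREBPs in the endoplasmic reticulum and is itself an SREBP target, stood at 311 FPKM with ebastine and 224 FPKM with vehicle (0.47). ABCG1, a cholesterol exporter induced by LXR, was lower, at 1.21 FPKM with ebastine and 2.21 FPKM with vehicle (-0.54). In the authors' deposited table SREBF2 had a q-value of 0.119, and INSIG1 and ABCG1 were under 0.05. SREBF1, the gene of the SREBP forms best known for fatty acid synthesis, is outside the table and has no value here.

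Of 27 fatty acid oxidation genes 3 were listed (11.1%, near the 14.2% of all tested genes), and the authors' deposited table gives each of them a q-value above 0.05 (0.0563 for ACADL and 0.156 for HADHB). HADHB, a subunit of the mitochondrial trifunctional protein, had a log2 ratio of 0.37. ACADL, a long-chain acyl-CoA dehydrogenase, was lower at 1.07 FPKM with ebastine and 1.92 FPKM with vehicle (-0.50). Of 22 genes of lipid droplets, lipolysis and fatty acid uptake 0 were listed, which says only that none passed the authors' p-value limit or that they were not tested.

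The genes of cholesterol synthesis, the other branch under SREBP control, were listed at 19 of 22 (86.4%, beside 14.2% of all tested genes). Of the 19, 18 were higher and 1 lower, whereas 43.0% of the 1768 listed genes were higher. The median log2 ratio of the 19 was 0.66, whereas that of the 4 genes was 0.83 and that of the 20 other lipid genes 0.40. The 4 were chosen as higher in this contrast and the 20 leave them out, so nothing is read from the order of these medians. SCD, at 1.24, lay between TM7SF2, a sterol reductase at 1.33, and HMGCS1 at 1.23, and above MSMO1 (1.07), FDFT1 (0.99), LSS (0.98) and DHCR7 (0.95). The lower gene, LBR, encodes another sterol reductase that is also a nuclear lamina protein. LBR was chosen after its values were seen, and stood at 21.7 FPKM with ebastine and 33.2 FPKM with vehicle. With 1 library per group, whether the 4 genes and the sterol genes differ in their ratios was not tested.

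Markers of the prostate luminal lineage were listed at 5 of 10 (50%, beside 14.2% of all tested genes). These 5 summed to 3006 FPKM with ebastine and 3801 FPKM with vehicle. KLK3, which encodes prostate-specific antigen, stood at 1599 FPKM with ebastine and 2476 FPKM with vehicle, so both libraries held transcripts of luminal prostate cells at a high level. KLK2 and TMPRSS2 were also lower with ebastine, at 272 and 289 FPKM, against 465 and 362 FPKM with vehicle. FOLH1 and ACPP went the other way, at 840 and 5.55 FPKM with ebastine, against 495 and 2.21 FPKM with vehicle. Thus 2 of the 5 were higher, near the 43.0% of the 1768 listed genes. In the authors' deposited table TMPRSS2 had a q-value of 0.245, and the other 4 were under 0.05. Markers of basal, fibroblast, adipocyte and leukocyte cells (4, 4, 5 and 4 genes) were not among the listed genes. That says only that none passed the authors' p-value limit or that they were not tested, and nothing about their level. In bulk RNA, more cells with a transcript and more of it per cell cannot be told apart.

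The direction of the 4 genes could not change under the settings tried. A pseudocount keeps the sign of a ratio, and each rescaling multiplied the ebastine library by a factor above 1 (1.26, 1.15 and 1.001). Over other pseudocounts, other scalings of the libraries and the authors' own fold change, the log2 ratio ran from 1.22 to 1.57 for SCD, from 0.74 to 1.17 for ACSS2, from 0.71 to 1.16 for LPIN1 and from 0.63 to 1.001 for ME1. Each stayed past 1.5-fold in all of them, but only the pseudocount of 5 FPKM could lower a ratio, and every other setting raised it. The order of SCD first and ME1 last was also kept, which a factor common to all genes could hardly change. The ratio of ACSS2 lay at most 0.031 above that of LPIN1.

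**Figure D5:**
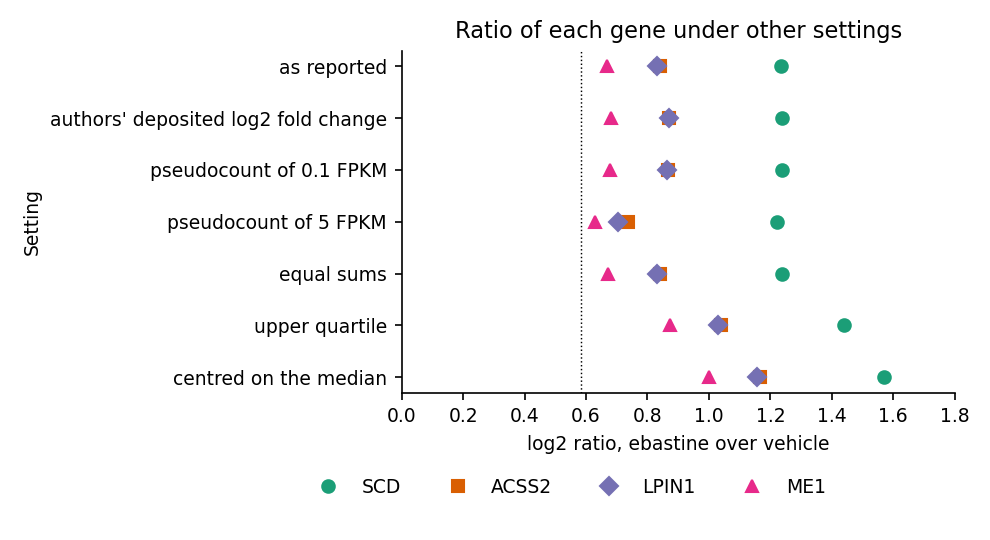
Log2 ratio of ebastine over vehicle (x axis) for each of the 4 genes under the reported setting and 6 others (y axis); the dotted line marks 1.5-fold. Rescaling by the upper quartile or centring on the median moves all 4 to the right together, SCD to 1.44 and 1.57.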

How the data were processed

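Polyadenylated RNA of 2 C4-2 cultures was sequenced, 1 per group. Per the submitters' processing notes, TopHat2, Cuffdiff and the hg19 build were used (no versions named); the sources used here do not state gene models, scaling method, strand setting or how reads with several matches were treated. Per the file headers, the deposited table is a Cuffdiff comparison with FPKM values of both libraries, the authors' log2 fold change, a test statistic (a score, not used), and each gene's p-value with its q-value. The library columns were assigned from the sample names in the table and in the labels. The table held 1947 genes, all with a p-value of 0.0499 or less; its q-values equal a Benjamini-Hochberg correction for 13714 tests. Genes outside it have no value, so medians over listed genes overstate the change of a pathway. Depth is unknown, since no counts are given, and no counting interval was computed.

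Log2 ratios used a pseudocount of 1 FPKM, and counts of genes a mean of at least 1 FPKM (1768 genes). No p-value was computed with 1 library per group. The code for the ratio and the count past a fold was run on simulated libraries with known changes. Those changes were larger than the ones of the 4 genes, so that check gives no error for their ratios. Locus starts were converted to count from 1, because the span then equalled the RefSeq gene length for 79 of 1725 genes, against 28 otherwise. List members were matched by symbol and RefSeq synonym. The 4 genes, the lists and the rule for named genes (listed list members, at most 6 per list, and the 3 genes nearest in ratio) were chosen with earlier results of these data known. Some listed genes of these lists are counted but not reported here by name. Promoters came from RefSeq (GRCh38.p14), exon counts from GENCODE 29. Python 3.11.15, numpy 2.4.6, pandas 2.3.3 and matplotlib 3.10.9 were used.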

Additional observations from a re-analysis of the deposited data

How the results depend on the processing

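No paired analysis was possible because each group held 1 library. All 4 genes stayed at least 1.5-fold higher under each pseudocount, minimum and scaling tried. Of these settings only the pseudocount of 5 FPKM could lower their ratios. At a limit of 2-fold the count was 1 as deposited and with equal sums. In a check added after seeing the data, that count was 4 after centring and 3 after upper quartile rescaling. Over all listed genes the count of 171 became 263 and 84 with pseudocounts of 0.1 and 5 FPKM, 705 after centring on the median ratio of genes averaging 10 FPKM or more, 431 after upper quartile rescaling and 32 at a limit of 2-fold. Centring multiplied the ebastine library by 1.26, a log2 shift of 0.34, and the upper quartile by 1.15, a log2 shift of 0.21, both computed on the filtered table. Centring placed SCD, ACSS2, LPIN1 and ME1 at log2 ratios of 1.57, 1.17, 1.16 and 1.001, and the upper quartile at 1.44, 1.04, 1.03 and 0.87. A pseudocount of 5 FPKM placed ACSS2 at 0.74 and LPIN1 at 0.71; a larger pseudocount lowers the ratio by construction. Of the 20 other lipid genes 16 were higher under each scaling and pseudocount, with 4 lower; a minimum mean of 5 FPKM left 15 higher and 1 lower, since it leaves out ACSL4 and the lower genes ELOVL2, ABCG1 and ACADL. IDH2 stayed lower, at -0.09 after centring. None of the 4 genes and none of the listed genes on the lipid and cholesterol lists changed sign under the settings run, whereas 79 of the 1768 listed genes did after centring. Only genes lower with ebastine could change sign, since each rescaling raised the ebastine library. Without replicates or depth, the error of each ratio is unknown.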

Other observations

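Other listed genes of lipid metabolism were chosen after their values were seen, from those at least 1.5-fold higher with ebastine, so their direction is fixed by the choice. AMACR, a racemase needed for the breakdown of branched-chain fatty acids and a tissue marker of prostate cancer, stood at 49.9 FPKM with ebastine and 26.4 FPKM with vehicle (log2 ratio 0.89). MPC1, a subunit of the carrier that brings pyruvate into mitochondria, stood at 51.6 FPKM with ebastine and 32.9 FPKM with vehicle (0.63). LIPG, an endothelial lipase, stood at 1.78 FPKM with ebastine and 0.762 FPKM with vehicle (0.66), and DGKH, a kinase that turns diacylglycerol back into phosphatidate, at 2.79 FPKM with ebastine and 1.51 FPKM with vehicle (0.59). In the authors' deposited table AMACR, MPC1, LIPG and DGKH had q-values under 0.05.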
